A study of Mus musculus with 67 samples.

Results

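The genes described here are 36 genes of the unfolded protein response and of protein folding in the endoplasmic reticulum (ER), of 35539 genes in the expression tables of a study of mouse lymphocytes. They were chosen by name for their function, by a rule that uses no measured value, though with earlier results of these data known. The genes fall into 6 roles. These are 3 stress sensors, 10 Hsp70- and Hsp90-type chaperones with their cofactors, 2 lectin chaperones and 6 genes of disulfide bond formation. The others are 8 genes of ER-associated degradation and 7 of translocation into the ER and signal peptide removal. RNA-seq was performed on cells isolated with enrichment kits for B cells or for CD4+ T cells. They came from spleen and lymph nodes of C57BL/6 mice that were either naive or immunized with MOG peptide to induce experimental autoimmune encephalomyelitis (EAE). Each of these 4 sets of cells had 5 arms of 3 libraries: unstimulated cells, and cells given aldehyde sulfate beads for 18 hours. The beads carried the primary stimulus, anti-IgM/G for B cells and anti-CD3 for T cells, together with a control immunoglobulin (CtrlIg) or with anti-Btla (clone 6A6, against the inhibitory receptor Btla), each with or without soluble IFNb. No arm carried anti-Btla without the primary stimulus, so all anti-Btla values are those of cells given that stimulus on the same beads.

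The ER lumen is where secreted and membrane proteins are folded, glycosylated and joined by disulfide bonds, and where those that fail are sent back to the cytosol for degradation. When unfolded protein accumulates, 3 membrane sensors respond: Ern1 (IRE1) splices the mRNA of the transcription factor Xbp1, Atf6 is cleaved into a transcription factor, and Eif2ak3 (PERK) phosphorylates eIF2α, which slows translation and favours Atf4. Plasma cell formation is the best known setting of this program in lymphocytes. Only transcript amounts were measured here, not splicing of Xbp1, cleavage of Atf6 or phosphorylation of eIF2α.

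Libraries held 6.7 to 62.1 M (mega) estimated reads in B cells and 7.3 to 34.2 M in T cells. B cell markers (Ms4a1, Cd79a and Cd79b) summed to between 1770 and 3820 counts-per-million (CPM) in B cell libraries and to at most 89.3 CPM in T cell libraries, and CD4 T cell markers to between 1520 and 2320 CPM in T cell libraries and at most 6.85 CPM in B cell libraries. CD8 T cell transcripts (Cd8a and Cd8b1) summed to 501 to 1100 CPM in naive T cell libraries and stood at 13.2 to 26.2 CPM in EAE T cell libraries, and 6 myeloid markers summed to between 121 and 309 CPM in unstimulated EAE T cells against at most 89.3 CPM in the stimulated ones. B and T cells differ in sequencing depth and transcript tables as well as in type, so a gap in level between a B and a T cell group is a description with no test, and type and sequencing cannot be told apart in it.

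The promoters of the ER folding genes are shown first because they carry a known sequence of this response. The ER stress element (ERSE, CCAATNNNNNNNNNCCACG, searched on both strands) was present in 10 of the 30 members with an entry in the RefSeq promoter table (33.3%), in 0 of 45 other genes of the pathway and in 37 of 27025 genes in all (0.137%). Its other form, ERSE-II (ATTGGNCCACG), was present in 2 members (6.67%) and in 12 genes in all (0.0444%). The letters TGACGTGG, the core of the element read by spliced Xbp1 and Atf6, and whose reverse strand holds the same CCACG box, were in 0 of 30 members, in 4 of the 45 other genes of the pathway (8.89%) and in 193 genes in all (0.714%). The neighbouring TGACGTCA was in 0 members, in 1 of the other genes (2.22%) and in 549 genes in all (2.03%). Atf6, Hyou1, Manf, Derl1, Sec61a1 and Ssr2 were not in the table. A match is a description of letters in a window of 250 bases before to 50 after the annotated start.

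Of the promoters below, all in GRCm38.p6 and written 5′ to 3′ on the gene's strand with the element in capitals, the first 3 belong to genes that rose in every activated set, and the last 2 carry the same kind of element in genes that fell in activated B cells. They lie at chr2:34771840-34772139 (Hspa5, plus strand), chr10:86705395-86705694 (Hsp90b1, minus strand, with 2 elements), chr12:17266339-17266638 (Pdia6, plus strand), chr13:12565633-12565932 (Ero1lb, listed in RefSeq as Ero1b, plus strand) and chr8:94386179-94386478 (Herpud1, plus strand, ERSE-II). An element in capitals that begins with CGTGG lies in the reverse orientation.
Hspa5: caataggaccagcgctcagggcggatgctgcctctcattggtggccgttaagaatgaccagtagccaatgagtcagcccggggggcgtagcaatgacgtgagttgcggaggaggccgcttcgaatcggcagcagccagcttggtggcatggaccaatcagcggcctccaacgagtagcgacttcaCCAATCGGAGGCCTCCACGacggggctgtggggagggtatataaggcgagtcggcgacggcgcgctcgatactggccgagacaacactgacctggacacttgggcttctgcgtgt
Hsp90b1: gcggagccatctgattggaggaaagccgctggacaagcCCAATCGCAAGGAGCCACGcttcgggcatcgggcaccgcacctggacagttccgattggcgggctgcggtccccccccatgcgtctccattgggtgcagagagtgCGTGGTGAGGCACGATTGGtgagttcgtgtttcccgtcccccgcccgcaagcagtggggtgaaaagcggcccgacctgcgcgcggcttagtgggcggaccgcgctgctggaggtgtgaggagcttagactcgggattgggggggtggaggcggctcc
Pdia6: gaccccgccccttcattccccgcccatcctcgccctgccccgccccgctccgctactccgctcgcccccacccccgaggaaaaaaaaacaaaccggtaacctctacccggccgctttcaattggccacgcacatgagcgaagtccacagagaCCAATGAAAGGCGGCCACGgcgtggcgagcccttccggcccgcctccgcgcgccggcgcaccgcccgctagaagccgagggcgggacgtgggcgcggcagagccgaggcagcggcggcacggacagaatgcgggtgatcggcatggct
Ero1lb: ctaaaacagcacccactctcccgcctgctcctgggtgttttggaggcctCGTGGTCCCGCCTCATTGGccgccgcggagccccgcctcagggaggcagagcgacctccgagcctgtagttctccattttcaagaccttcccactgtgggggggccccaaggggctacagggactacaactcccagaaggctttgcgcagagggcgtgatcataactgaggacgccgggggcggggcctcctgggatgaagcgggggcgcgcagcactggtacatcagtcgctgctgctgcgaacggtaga
Herpud1: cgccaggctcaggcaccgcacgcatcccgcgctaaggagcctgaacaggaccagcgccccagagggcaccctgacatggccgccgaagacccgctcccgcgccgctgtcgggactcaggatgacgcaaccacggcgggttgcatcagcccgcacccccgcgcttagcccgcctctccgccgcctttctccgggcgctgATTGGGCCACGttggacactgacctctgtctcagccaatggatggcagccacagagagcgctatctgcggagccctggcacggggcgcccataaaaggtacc

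The other members with an ERSE were Dnajc3, Creld2, Calr, Canx, Syvn1 and Derl3, and the other with an ERSE-II was Dnajb11. On activation, the 12 members with either element had a median log2 change of 0.45 in naive B cells, 0.60 in EAE B cells, 0.71 in naive T cells and 1.53 in EAE T cells. The 18 members in the table with neither had medians of 0.36, 0.42, 0.39 and 0.84. The 6 members not in the table had medians of 0.45, 0.42, 0.97 and 1.38. The ranges of the groups overlapped in every set, with Ero1lb the lowest of the genes that carry an element and Sdf2l1, which carries neither, at 2.88 in EAE T cells.

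The summed level of the 36 genes is given first, by arm. In naive B cells it was 4792, 4803 and 4696 CPM unstimulated, 5709, 5502 and 5558 CPM with CtrlIg beads, and 4723, 4727 and 4625 CPM with anti-Btla beads. All CtrlIg libraries were above all of the others, by 1.17-fold over rest and 1.19-fold over anti-Btla in the means, and the unstimulated and anti-Btla libraries overlapped. The same sums in EAE B cells were 4814, 4630 and 4765 CPM, then 6289, 5815 and 5700 CPM, then 5093, 4736 and 4723 CPM, with CtrlIg again above both (1.25-fold and 1.22-fold) and no gap between unstimulated and anti-Btla.

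In naive T cells the sum was 3124, 3066 and 3044 CPM unstimulated, 4188, 4079 and 4081 CPM with CtrlIg beads and 4184, 4118 and 4036 CPM with anti-Btla beads, so that the bead arms overlapped and both stood 1.34-fold above rest. In EAE T cells it was 3324, 3995 and 3269 CPM unstimulated, 7600, 8066 and 8150 CPM with CtrlIg beads and 7088, 7570 and 7660 CPM with anti-Btla beads. The CtrlIg mean was 2.25-fold the unstimulated mean, and CtrlIg and anti-Btla overlapped, although anti-Btla was below CtrlIg at each of the 3 replicate numbers (0.937-fold in the means). With IFNb the EAE T sums were 6848, 7370 and 6602 CPM for CtrlIg and 6414, 6899 and 6322 CPM for anti-Btla beads, again overlapping and lower at each number (0.943-fold). These are bulk RNA values, in which fewer cells of a kind and less RNA per cell cannot be told apart.

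**Figure D1:**
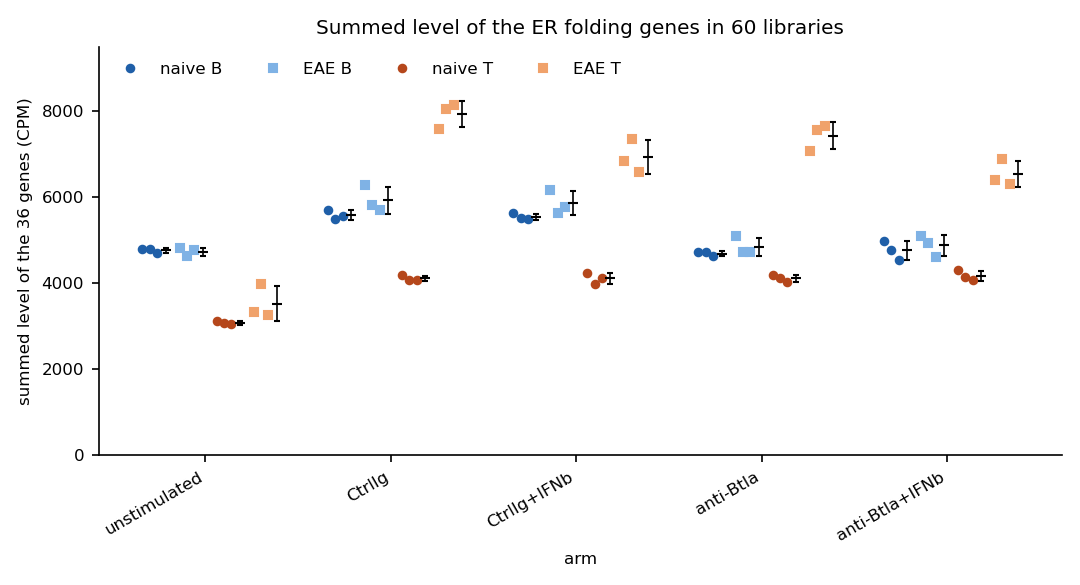
Summed level of the 36 ER folding genes (CPM, vertical axis) in each of the 60 libraries by arm; each point is a library, and the black bar is the mean with its SD (n = 3). In B cells the anti-Btla arms (4692 and 4851 CPM) sit at the unstimulated level and the CtrlIg arms above it, while in T cells all 4 bead arms lie above rest, and furthest in EAE T cells.

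Per unit of transcript length (transcripts-per-million, TPM), Canx, the membrane-bound lectin chaperone, was the most abundant of these genes in unstimulated naive B cells (384.9 TPM), followed by Hsp90b1 (GRP94, 300.4 TPM), Hspa5 (BiP, 168.2 TPM) and the disulfide isomerase Pdia3 (130.8 TPM). In EAE T cells with CtrlIg beads the order began with Canx (676.1 TPM), Hsp90b1 (591.7 TPM), Calr (516.7 TPM) and Pdia3 (481.5 TPM). Across the 20 groups the level varied least for Dnajc10, the ER-resident J-protein and reductase, whose highest group mean was 1.33-fold its lowest, Derl2 (1.40-fold) and Sel1l (1.42-fold). It varied most for Atf6, from 22.6 CPM in unstimulated naive T cells to 614.8 CPM in naive B cells with CtrlIg beads and IFNb (27.2-fold), and for Ero1lb, from 15.9 CPM in EAE T cells with CtrlIg beads and IFNb to 348.4 CPM in unstimulated naive B cells (21.9-fold). Derl3, a derlin of the degradation channel, had group means from 0.427 to 5.03 CPM.

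The first comparison, called activation, asks how these genes differ between CtrlIg beads, which carried the primary stimulus, and no stimulus. Engagement of the antigen receptor, the beads, the control immunoglobulin and the 18 hours of incubation cannot be told apart in it. The labels give no time in culture for the unstimulated cells. In naive B cells 27 of 36 members rose and 4 fell, by edgeR's quasi-likelihood test at a Benjamini-Hochberg adjusted p under 0.05, against 22.7% and 17.5% of the 16618 genes tested. The counts in EAE B cells were 28 higher and 4 lower, against 21.1% and 18.8% of 16989 genes. The median log2 change of the members was 0.41 and 0.48, and that of all genes -0.02 and -0.05. Of the genes that rose, 26 were shared by the 27 naive and the 28 EAE calls, and so were all 4 that fell, which were Eif2ak3, Ero1lb, Herpud1 and Syvn1. The overlap of the naive and EAE calls over all genes was not counted. Ern1, Dnajc10 and Derl2 were not called in either set, nor were Dnajc3 and Manf in naive and Dnajb9 in EAE B cells. With library size as the only scaling, the median of all genes moved by -0.11 and -0.13, the calls over all genes turned to 2834 higher and 4297 lower (from 3775 and 2900) in naive B cells and to 2523 and 4950 (from 3577 and 3186) in EAE B cells, and the members' calls stood at 25 higher and 5 lower in each set. The B cell markers themselves moved with the arms, from 3090 to 3820 CPM at rest to 1880 to 2440 CPM with CtrlIg beads and 2550 to 3060 CPM with anti-Btla beads, and their part in the result was not tested. Since the CPM given here are scaled by library size and the fits by trimmed mean of M-values, a log2 change can differ a little from the ratio of the CPM beside it.

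Among the sensors, Atf6 (chr1:170704674-170867771, minus strand, GRCm38) stood at 461.6, 418.2 and 449.3 CPM in unstimulated naive B cells and at 599.5, 604.0 and 616.4 CPM with CtrlIg beads. The EAE B cells held Atf6 at 438.1, 394.3 and 419.6 CPM and at 538.3, 544.5 and 526.5 CPM. The groups did not overlap in either set, and the log2 change was 0.56 ± 0.05 (SE; adjusted p = 2.02e-07 by edgeR) in naive and 0.49 ± 0.06 (adjusted p = 1.22e-05 by edgeR) in EAE B cells.

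Eif2ak3 (chr6:70844515-70905245, plus strand), which shares bases with the opposite-strand gene Gm43292, went the other way. It stood at 134.8, 148.6 and 127.6 CPM in unstimulated naive B cells and at 80.39, 86.24 and 81.37 CPM with CtrlIg beads, and at 94.92, 118.8 and 97.78 CPM and 64.58, 65.28 and 76.69 CPM in EAE B cells. The CtrlIg libraries were below all unstimulated libraries in both sets, with log2 changes of -0.62 ± 0.06 (adjusted p = 5.16e-07 by edgeR) and -0.46 ± 0.07 (adjusted p = 0.000255). Ern1 was measured at 12.8 to 22.8 CPM over these 12 libraries, with log2 changes of -0.07 ± 0.08 (adjusted p = 0.499 by edgeR) and -0.10 ± 0.09 (adjusted p = 0.403).

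Hspa5 (chr2:34771970-34777547, plus strand), the ER's Hsp70 and the repressor of the sensors at rest, stood at 319.6, 307.5 and 288.7 CPM in unstimulated naive B cells and at 443.3, 410.3 and 400.5 CPM with CtrlIg beads. The EAE B cell values were 331.4, 297.8 and 332.3 CPM, and 489.0, 436.5 and 421.9 CPM. Every CtrlIg library was above every unstimulated library, with log2 changes of 0.56 ± 0.06 (adjusted p = 3.41e-06 by edgeR) and 0.62 ± 0.09 (adjusted p = 7.63e-05). Of the 10 chaperones, 7 rose in naive and 8 in EAE B cells and none fell. The largest change was that of Sdf2l1, a partner of the J-protein Dnajb11, at 0.94 ± 0.14 (adjusted p = 4.48e-05 by edgeR) and 1.02 ± 0.12 (adjusted p = 1.48e-05). Hsp90b1 rose by 0.50 ± 0.06 (adjusted p = 1.13e-05 by edgeR) and 0.79 ± 0.08 (adjusted p = 3.68e-06), and its exons overlap those of Gm15344 and Gm25745. The J-protein Dnajc10 had log2 changes of 0.07 (adjusted p = 0.407 by edgeR) and 0.12 (adjusted p = 0.2).

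Both lectin chaperones, which hold glycoproteins until they are folded, rose in both sets. Canx stood at 383.4, 385.8 and 381.6 CPM at rest and at 538.4, 509.8 and 536.4 CPM with CtrlIg beads in naive B cells (0.57 ± 0.05, adjusted p = 5.16e-07 by edgeR). Canx in EAE B cells stood at 389.5, 388.4 and 420.3 CPM and at 624.0, 617.3 and 568.5 CPM (0.72 ± 0.07, adjusted p = 4.34e-06 by edgeR). The groups did not overlap in either set. Calr, the soluble counterpart, changed by 0.62 ± 0.08 (adjusted p = 9.65e-06 by edgeR) and 0.62 ± 0.07 (adjusted p = 4.31e-06).

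Of the 6 genes of disulfide bond formation, 5 rose and 1 fell in each set. Pdia3, the isomerase that works with Canx and Calr, stood at 232.6, 227.3 and 213.6 CPM at rest and 326.1, 297.7 and 308.0 CPM with CtrlIg beads in naive B cells, and at 255.9, 214.8 and 243.7 CPM and 433.5, 360.1 and 359.9 CPM in EAE B cells. The groups were apart in both, with log2 changes of 0.57 ± 0.08 (adjusted p = 2.49e-05 by edgeR) and 0.82 ± 0.07 (adjusted p = 7.32e-07). In EAE B cells the isomerase P4hb stood at 92.07, 90.92 and 87.54 CPM at rest and 123.8, 130.9 and 131.1 CPM with CtrlIg beads (0.65 ± 0.06, adjusted p = 1.39e-06 by edgeR). There Pdia6 stood at 42.79, 47.16 and 40.99 CPM at rest and 76.37, 66.22 and 62.81 CPM with CtrlIg beads (0.78 ± 0.07, adjusted p = 1.68e-06 by edgeR). Neither P4hb nor Pdia6 overlapped between these groups, and in naive B cells they changed by 0.47 (adjusted p = 6.64e-05 by edgeR) and 0.49 (adjusted p = 1.75e-05).

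The 2 oxidases that pass electrons from the isomerases to oxygen moved apart. Ero1lb (chr13:12565874-12611396, plus strand) stood at 352.7, 324.0 and 368.7 CPM at rest and at 180.8, 180.9 and 214.0 CPM with CtrlIg beads in naive B cells. Ero1lb in EAE B cells stood at 301.6, 297.9 and 332.6 CPM at rest and at 184.8, 172.1 and 188.4 CPM with CtrlIg beads. All activated libraries were far below all resting ones, with log2 changes of -0.75 ± 0.05 (adjusted p = 2.27e-08 by edgeR) and -0.64 ± 0.06 (adjusted p = 1.78e-06). Ero1l, the other oxidase, rose by 0.40 ± 0.05 (adjusted p = 7.56e-06 by edgeR) and 0.38 ± 0.09 (adjusted p = 0.00398).

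Of the 8 genes of ER-associated degradation, 5 rose and 2 fell in each set. Herpud1, a membrane protein that organizes the degradation complex, changed by -0.27 ± 0.07 (adjusted p = 0.00362 by edgeR) and -0.41 ± 0.06 (adjusted p = 0.000117), and Syvn1, the ubiquitin ligase HRD1, by -0.30 ± 0.08 (adjusted p = 0.00595) and -0.36 ± 0.10 (adjusted p = 0.0139). Derl3 rose by 1.02 ± 0.16 (adjusted p = 0.000112 by edgeR) and 0.74 ± 0.16 (adjusted p = 0.00175) from means of 2.68 and 2.00 CPM. Sel1l, the partner of Syvn1, rose by 0.19 (adjusted p = 0.00893 by edgeR) and 0.28 (adjusted p = 0.00186), so the ligase and its partner moved in opposite directions.

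All 7 genes of translocation and signal peptide removal rose in both sets, with medians of 0.63 and 0.65. The Sec61 channel subunit Sec61b rose by 0.81 ± 0.13 (adjusted p = 0.000125 by edgeR) and 0.84 ± 0.12 (adjusted p = 6.04e-05). The signal peptidase subunits followed, with Spcs1 at 0.74 ± 0.07 (adjusted p = 9.57e-07 by edgeR) and 0.68 ± 0.10 (adjusted p = 8.52e-05), and Spcs2 at 0.63 ± 0.07 (adjusted p = 4.67e-06) and 0.65 ± 0.09 (adjusted p = 7.46e-05). Ssr2, of the translocon-associated complex, rose by 0.67 ± 0.08 (adjusted p = 6.79e-06 by edgeR) and 0.71 ± 0.12 (adjusted p = 0.000337).

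Of a list of other genes of the pathway, 27 of the 55 tested rose and 6 fell in naive B cells, with 25 higher and 8 lower in EAE B cells. Glycosylation genes made up 10 of those that rose in each, of 11 on the list. Xbp1 (chr11:5520659-5525893, plus strand) stood at 48.76, 45.95 and 50.59 CPM at rest and 76.24, 67.17 and 67.28 CPM with CtrlIg beads in naive B cells, and at 51.68, 52.52 and 45.78 CPM and 81.64, 66.61 and 72.30 CPM in EAE B cells. The groups were apart in both, with log2 changes of 0.64 ± 0.06 (adjusted p = 3.91e-07 by edgeR) and 0.69 ± 0.08 (adjusted p = 1.24e-05). Vcp, the ATPase that pulls proteins out of the ER membrane, rose by 0.81 ± 0.05 (adjusted p = 2.46e-08 by edgeR) and 0.88 ± 0.07 (adjusted p = 4.20e-07). Atf4, downstream of Eif2ak3, changed by 0.25 (adjusted p = 0.00970 by edgeR) and 0.09 (adjusted p = 0.273), and its target Ddit3 (CHOP) by -0.21 (adjusted p = 0.0467) and -0.38 (adjusted p = 0.00515). Plasma cell markers (3 of 4 detected) summed to 68.6 to 69.2 CPM at rest, 67.5 to 72.4 CPM with CtrlIg and 73.7 to 82.6 CPM with anti-Btla beads in naive B cells, and to 34.9 to 70.1, 41.2 to 76.5 and 50.9 to 70.6 CPM in EAE B cells, so the resting and CtrlIg ranges overlapped.

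The next comparison asks what changes when the beads carry anti-Btla in place of CtrlIg. It shares the CtrlIg libraries with the activation comparison, so the opposite signs of the 2 are not independent of each other. In naive B cells 28 of 36 members fell and 2 rose by edgeR's quasi-likelihood test, against 19.7% lower and 13.1% higher among the 16618 genes tested. The counts in EAE B cells were 28 lower and 2 higher, against 16.5% and 13.6% of 16989 genes. The median log2 change was -0.42 and -0.44, against 0.01 and 0.04 over all genes. The 28 genes that fell were the same in naive and EAE B cells, and Eif2ak3 and Ero1lb were the 2 that rose in both. Here too the overlap over all genes was not counted. Not called in either set were Ern1, Dnajc10, Pdia4, Herpud1, Syvn1 and Derl2. With library size as the only scaling, the calls over all genes were 3326 higher and 2469 lower (from 2172 and 3281) in naive and 3267 and 2137 (from 2315 and 2807) in EAE B cells, and the members' calls were 3 higher and 27 lower, and 2 higher and 24 lower. When the replicate block was dropped, the EAE count went from 30 to 18, and the calls over all genes to 1167 higher and 1608 lower. The EAE anti-Btla libraries were also shallower, at 6.7 to 29.5 M estimated reads against 36.3 to 62.1 M with CtrlIg, and the part of depth in the result was not tested.

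Eif2ak3 rose most. It stood at 186.6, 192.8 and 168.6 CPM with anti-Btla beads in naive B cells, against 80.39, 86.24 and 81.37 CPM with CtrlIg, and at 124.2, 157.6 and 141.6 CPM against 64.58, 65.28 and 76.69 CPM in EAE B cells. The groups did not overlap, and the anti-Btla libraries were also above all unstimulated libraries of their set. The log2 change over CtrlIg was 1.05 ± 0.06 (adjusted p = 1.20e-08 by edgeR), or 2.07-fold, in naive and 0.95 ± 0.08 (adjusted p = 1.68e-06) in EAE B cells.

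Atf6 stood at 496.5, 514.6 and 495.9 CPM with anti-Btla beads in naive B cells and at 491.4, 429.7 and 440.5 CPM in EAE B cells, below every CtrlIg library of each set. Its log2 changes were -0.36 ± 0.05 (adjusted p = 2.48e-05 by edgeR) and -0.33 ± 0.06 (adjusted p = 0.000752). Ern1 changed by -0.03 (adjusted p = 0.836 by edgeR) and -0.07 (adjusted p = 0.599), with overlapping groups. Of the 3 sensors, 1 therefore rose, 1 fell and 1 was not called in each set.

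Hspa5 stood at 289.1, 283.1 and 254.9 CPM with anti-Btla beads in naive B cells and at 308.9, 276.7 and 299.8 CPM in EAE B cells, below every CtrlIg library and overlapping the unstimulated ones. The log2 change was -0.69 ± 0.06 (adjusted p = 8.95e-07 by edgeR) and -0.69 ± 0.09 (adjusted p = 6.03e-05). Of the 10 chaperones 9 fell in each set, all but Dnajc10. Sdf2l1 changed by -0.86 ± 0.14 (adjusted p = 0.000153 by edgeR) and -0.92 ± 0.13 (adjusted p = 0.000143). Dnajb9 (ERdj4), which brings Hspa5 to its substrates and to Ern1, changed by -0.69 ± 0.07 (adjusted p = 1.94e-06 by edgeR) and -0.74 ± 0.10 (adjusted p = 9.94e-05).

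Calr stood at 131.1, 113.8 and 114.1 CPM with anti-Btla and 190.6, 165.2 and 157.3 CPM with CtrlIg in naive B cells, and at 189.6, 164.7 and 139.7 CPM and 244.7, 224.5 and 206.7 CPM in EAE B cells. Calr libraries of the arms did not overlap, with log2 changes of -0.60 ± 0.08 (adjusted p = 1.98e-05 by edgeR) and -0.54 ± 0.07 (adjusted p = 3.48e-05). Canx changed by -0.50 ± 0.05 (adjusted p = 3.48e-06 by edgeR) and -0.57 ± 0.07 (adjusted p = 7.17e-05), so both lectin chaperones fell.

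Ero1lb stood at 280.7, 298.2 and 304.2 CPM with anti-Btla beads in naive B cells and at 270.6, 272.6 and 312.4 CPM in EAE B cells, above every CtrlIg library. Its log2 changes were 0.53 ± 0.05 (adjusted p = 1.28e-06 by edgeR) and 0.56 ± 0.06 (adjusted p = 1.24e-05). The other oxidase, Ero1l, and 3 isomerases (Pdia3, Pdia6 and P4hb) fell in both sets. Pdia6 changed by -0.58 ± 0.07 (adjusted p = 6.42e-06 by edgeR) and -0.60 ± 0.07 (adjusted p = 4.25e-05), and Pdia3 by -0.53 ± 0.08 (adjusted p = 8.96e-05) and -0.56 ± 0.07 (adjusted p = 4.42e-05). Pdia4 was the exception among the isomerases, at -0.075 and -0.069 (adjusted p = 0.329 and 0.472 by edgeR).

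Of the degradation genes 5 of 8 fell in each set. Derl1, of the channel through which proteins leave the ER, stood at 70.39, 72.60 and 70.72 CPM with anti-Btla and 98.04, 110.4 and 92.75 CPM with CtrlIg in naive B cells, and at 80.69, 64.53 and 63.76 CPM and 101.9, 95.11 and 95.44 CPM in EAE B cells. The arms did not overlap for Derl1, with log2 changes of -0.58 ± 0.06 (adjusted p = 1.50e-06 by edgeR) and -0.56 ± 0.07 (adjusted p = 2.98e-05). Herpud1 and Syvn1, which were lower with CtrlIg beads than at rest, were not called here, at -0.09 and 0.06 in naive (adjusted p = 0.338 and 0.631 by edgeR) and -0.06 and 0.20 in EAE B cells (adjusted p = 0.525 and 0.164).

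All 7 translocation genes fell in both sets, with medians of -0.59 and -0.44. In naive B cells the largest of these changes were those of Spcs1 (-0.71 ± 0.07, adjusted p = 3.11e-06 by edgeR), Spcs2 (-0.61 ± 0.07, adjusted p = 1.06e-05) and Sec61b (-0.61 ± 0.13, adjusted p = 0.00195). These 3 genes in EAE B cells changed by -0.56 ± 0.10 (adjusted p = 0.000989 by edgeR), -0.50 ± 0.10 (adjusted p = 0.00135) and -0.50 ± 0.12 (adjusted p = 0.00720). Of the other pathway genes, 28 of 55 fell in each set, with 1 that rose in naive and 3 in EAE B cells.

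Xbp1 stood at 51.50, 49.43 and 51.06 CPM with anti-Btla beads in naive B cells and at 57.78, 55.09 and 51.36 CPM in EAE B cells, below all CtrlIg libraries (-0.56 ± 0.06, adjusted p = 2.92e-06, and -0.51 ± 0.08, adjusted p = 0.000385, by edgeR). Atf4 fell too, by 0.57 (adjusted p = 1.58e-05 by edgeR) and 0.63 (adjusted p = 5.51e-06) on the log2 scale. Of the Atf4 targets, Trib3 changed by -1.14 (adjusted p = 7.77e-07 by edgeR) and -0.95 (adjusted p = 4.19e-05), and Chac1 by -1.25 (adjusted p = 6.42e-07) in naive B cells, while Ddit3 changed by -0.08 (adjusted p = 0.464) and -0.22 (adjusted p = 0.116). The transcript of the Atf4-side sensor, Eif2ak3, thus rose where those of Atf4 and Trib3 fell.

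**Figure D2:**
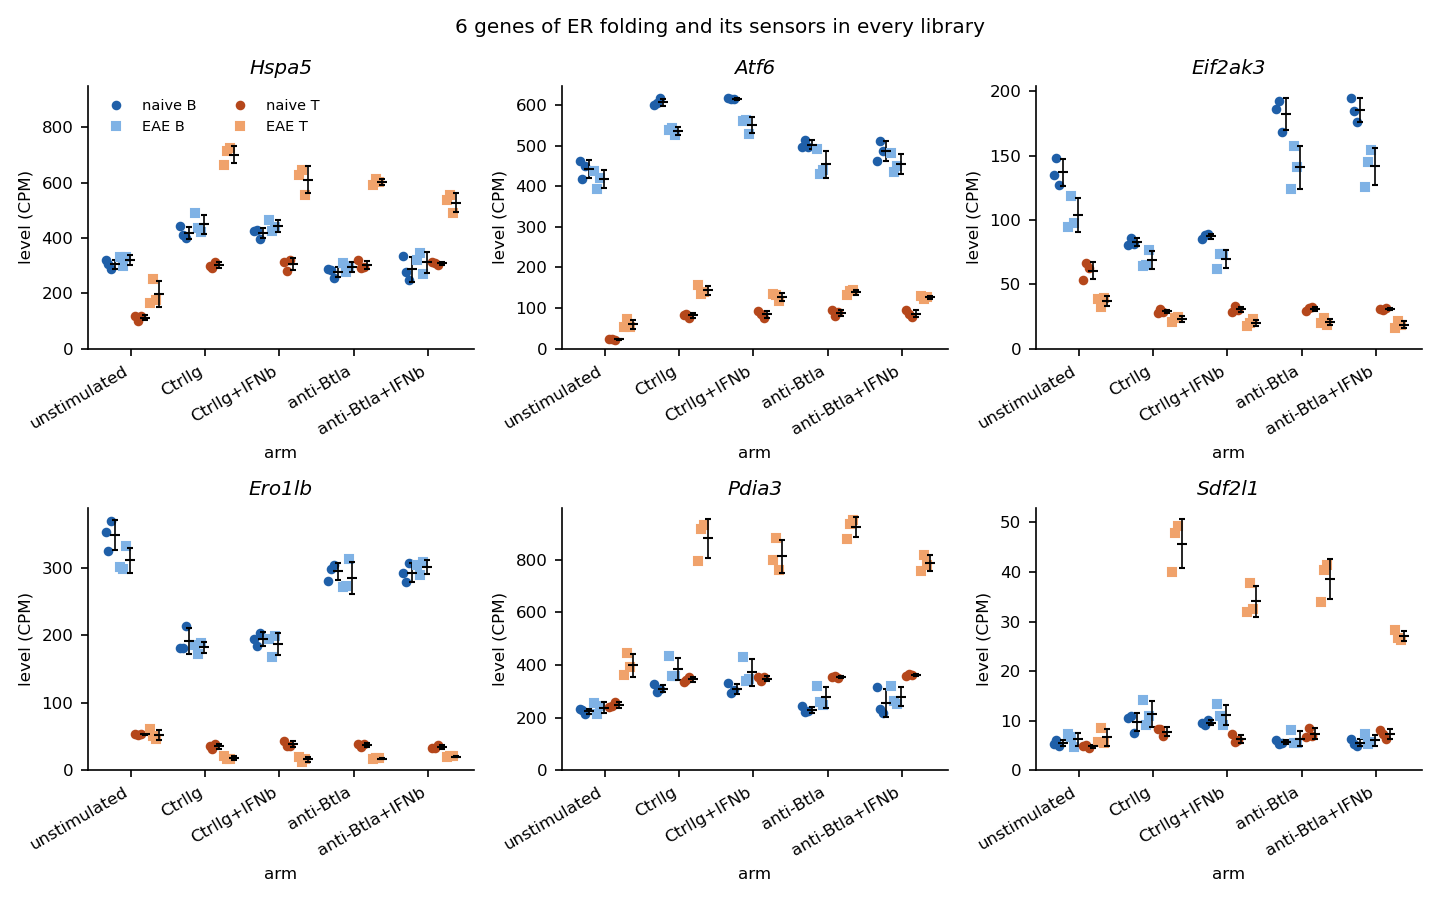
Level (CPM, vertical axis of each panel) of Hspa5, Atf6, Eif2ak3, Ero1lb, Pdia3 and Sdf2l1 in each of the 60 libraries by arm; points are libraries and black bars the mean with its SD (n = 3). In B cells Eif2ak3 and Ero1lb are low with CtrlIg beads and high with anti-Btla beads, the reverse of Hspa5 and Pdia3, and in T cells the CtrlIg and anti-Btla arms lie closer to each other than to rest.

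In the presence of IFNb, anti-Btla against CtrlIg beads called 26 of 36 members lower and 2 higher in naive B cells (17.6% and 12% of all genes tested) and 26 lower and 2 higher in EAE B cells (17.4% and 13.6%) by edgeR. The members' medians were -0.37 and -0.44, against 0.00 and 0.03 over all genes. Eif2ak3 changed by 1.04 ± 0.06 (adjusted p = 1.65e-08 by edgeR) and 0.96 ± 0.08 (adjusted p = 1.35e-06), and Ero1lb by 0.54 ± 0.05 (adjusted p = 1.25e-06) and 0.63 ± 0.06 (adjusted p = 4.31e-06). Hspa5 changed by -0.60 ± 0.06 (adjusted p = 4.04e-06 by edgeR) and -0.57 ± 0.09 (adjusted p = 0.000238). Dropping the block took the EAE count to 18, and the calls over all genes to 1085 higher and 1720 lower (from 2308 and 2957). With library size as the only scaling the members' calls were 2 higher and 26 lower in each set, while those over all genes were 2517 and 2450 (from 1987 and 2918) in naive and 3090 and 2411 (from 2308 and 2957) in EAE B cells.

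Anti-Btla beads were also set against rest, a comparison that shares its libraries with both of those above. In naive B cells 2 members rose and 3 fell (3.65% and 4.06% of all genes tested), with 2 higher and 2 lower in EAE B cells (3.24% and 2.49%) by edgeR, with medians of -0.02 and 0.09. Eif2ak3 was above rest by 0.43 ± 0.06 (adjusted p = 0.000204 by edgeR) and 0.49 ± 0.08 (adjusted p = 0.00162). Dnajb9 was below rest, at -0.40 ± 0.07 (adjusted p = 0.00181 by edgeR) and -0.52 ± 0.10 (adjusted p = 0.00729), and Herpud1 at -0.35 ± 0.07 (adjusted p = 0.00316) and -0.47 ± 0.06 (adjusted p = 0.000673). Hspa5 was at -0.13 (adjusted p = 0.275 by edgeR) and -0.07 (adjusted p = 0.765), with overlapping libraries. Of the other genes, Atf4 was also below rest, at -0.32 (adjusted p = 0.0103 by edgeR) and -0.545 (adjusted p = 0.000158), as was Ddit3, at -0.30 (adjusted p = 0.0355) and -0.595 (adjusted p = 0.00273). Leaving out a library moved the naive count between 3 and 5, with 3 when unstimulated replicate 2 or 3 or anti-Btla replicate 1 or 3 was left out. The EAE count was 2 without the block, where the calls over all genes were 107 higher and 141 lower (from 550 and 423). With library size as the only scaling, the EAE calls over all genes were 426 higher and 678 lower.

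The same 2 questions were asked in T cells. On activation with CtrlIg beads, 27 of 36 members rose and 4 fell in naive T cells (27.1% and 23% of the 15137 genes tested), and 28 rose and 5 fell in EAE T cells (31.7% and 31.4% of 14547) by edgeR. The medians of 0.57 and 1.08 compare with -0.02 and -0.07 over all genes. The sets shared 25 of the genes that rose and 2 of those that fell, Eif2ak3 and Ero1lb. Over all 4 sets of cells, 22 members rose in each and the same 2 genes fell in each. How many of all genes were called alike across these sets was not counted.

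Hspa5 stood at 117.1, 101.5 and 119.1 CPM in unstimulated naive T cells and 299.2, 292.9 and 312.7 CPM with CtrlIg beads. In EAE T cells Hspa5 stood at 164.9, 252.4 and 175.3 CPM and at 665.8, 715.2 and 725.7 CPM. The groups were far apart, with log2 changes of 1.49 ± 0.05 (adjusted p = 7.52e-14 by edgeR) and 1.89 ± 0.11 (adjusted p = 8.45e-10). Of the sensors, Atf6 rose by 1.93 ± 0.08 (adjusted p = 3.79e-13 by edgeR), from 22.6 ± 2.2 to 81.8 ± 6.1 CPM (SD, n = 3), in naive T cells and by 1.31 ± 0.11 (adjusted p = 3.80e-08) in EAE T cells. Eif2ak3 changed by -1.01 ± 0.07 (adjusted p = 1.50e-09 by edgeR) and -0.63 ± 0.13 (adjusted p = 0.000512). Ern1 was at -0.14 (adjusted p = 0.242 by edgeR) in naive T cells and fell by 0.49 (adjusted p = 0.00335) in EAE T cells, where its unstimulated libraries spread from 26.7 to 59.2 CPM and overlapped the activated ones.

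The largest change among the members in EAE T cells was that of Sdf2l1, which stood at 5.743, 8.583 and 5.531 CPM at rest and 40.04, 47.91 and 49.23 CPM with CtrlIg beads (2.88 ± 0.14, adjusted p = 1.43e-10 by edgeR). In naive T cells Sdf2l1 stood at 4.934, 5.047 and 4.413 CPM and 8.223, 8.342 and 6.834 CPM (0.75 ± 0.15, adjusted p = 0.000488 by edgeR). The groups did not overlap in either, and the 7.36-fold change in EAE T cells was the largest of any member with activation in the 4 sets. Pdia6 followed in EAE T cells at 2.13 ± 0.14 (adjusted p = 2.29e-09 by edgeR), then Creld2, Canx, Hspa5, P4hb and Calr between 1.82 and 1.93. In naive T cells the largest after Atf6 and Hspa5 were Calr (1.29 ± 0.04, adjusted p = 6.52e-14 by edgeR), Herpud1 (1.15 ± 0.08, adjusted p = 9.85e-10) and Ssr2 (1.10 ± 0.08, adjusted p = 8.57e-10).

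Some members that fell in activated B cells rose in activated T cells. Herpud1 rose by 1.15 in naive and by 0.63 ± 0.11 (adjusted p = 0.000175 by edgeR) in EAE T cells, and Syvn1 by 0.43 ± 0.09 (adjusted p = 0.000436) and 0.74 ± 0.07 (adjusted p = 1.49e-07). Ero1lb fell in T cells as it did in B cells, by 0.53 on the log2 scale (adjusted p = 3.77e-05 by edgeR) in naive and by 1.49 (adjusted p = 2.20e-07) in EAE T cells. In naive T cells the other members that fell were Edem1, at -0.44 (adjusted p = 1.82e-06 by edgeR), and Dnajc3, at -0.35 (adjusted p = 1.14e-05). In EAE T cells they were Ern1, Dnajc10, at -0.23 (adjusted p = 0.00816 by edgeR), and Dnajb9, at -0.30 (adjusted p = 0.0498).

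Of the other pathway genes 33 of 54 rose and 2 fell in naive T cells, and 35 of 56 rose and 3 fell in EAE T cells. Xbp1 stood at 27.27, 30.88 and 32.19 CPM at rest and 81.41, 68.48 and 69.58 CPM with CtrlIg beads in naive T cells (1.30 ± 0.08, adjusted p = 8.60e-11 by edgeR). In EAE T cells Xbp1 stood at 37.93, 51.14 and 37.95 CPM and at 230.8, 415.6 and 395.1 CPM (3.07 ± 0.12, adjusted p = 2.10e-11 by edgeR). The Atf4 branch showed the other order: Atf4 rose by 1.66 (adjusted p = 7.52e-14 by edgeR) and Ddit3 by 1.76 (adjusted p = 3.92e-12) in naive T cells, against 0.53 (adjusted p = 3.77e-05) and 0.16 (adjusted p = 0.391) in EAE T cells. Atf3 rose from 1.02 to 25.7 CPM (4.76 ± 0.16, adjusted p = 3.27e-14 by edgeR) and Chac1 from 0.866 to 16.9 CPM (4.39 ± 0.21, adjusted p = 4.41e-12) in naive T cells.

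The difference between EAE and naive cells in the activation change was tested as an interaction, a comparison added after the other results were seen. In T cells it called 26 of 36 members higher and 5 lower in EAE (20.8% and 17% of all genes tested), with a median of 0.56 against -0.03 over all genes. In the first group were 8 of 10 chaperones, both lectin chaperones, 5 of 6 disulfide genes and 6 of 7 translocation genes, and of the other pathway genes Xbp1 differed by 1.84 ± 0.15 (adjusted p = 8.01e-10 by edgeR) and Atf4 by -1.06 ± 0.10 (adjusted p = 7.70e-09). Some markers of other cells moved between the same arms. The 6 myeloid markers summed in EAE T cells to 121 to 309 CPM at rest and at most 67.3 CPM with CtrlIg beads, and in naive T cells to at most 23.4 and 35.9 CPM. The NK cell markers lay at 14.3 to 22.7 CPM at rest and 2.28 to 3.89 CPM with CtrlIg beads in EAE T cells, against 4.36 to 8.44 and 2.12 to 6.03 CPM in the naive ones. The CD8 T cell markers lay at 926 to 1100 CPM at rest and 598 to 752 CPM with CtrlIg beads in naive T cells, while EAE T cells held at most 26.2 CPM at rest and at most 15.2 CPM with CtrlIg beads. Plasma cell markers (2 of 4 detected) stood at 12.6 to 21.2 CPM over all naive and 61.9 to 121 CPM over all EAE T cell libraries. Their resting and CtrlIg ranges overlapped, at 63.8 to 95.1 and 66.3 to 108 CPM in EAE T cells. In naive T cells these ranges were 13.1 to 21.2 and 15.3 to 18.6 CPM. The part of these cells in the result was not tested. In B cells the same difference called 0 of 36 members by edgeR and 0 by DESeq2 (0.0808% of all genes tested by edgeR), with 6 at an unadjusted p under 0.05 by edgeR and a median of 0.06. Over all genes edgeR had 815 of 17323 under that unadjusted p.

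**Figure D3:**
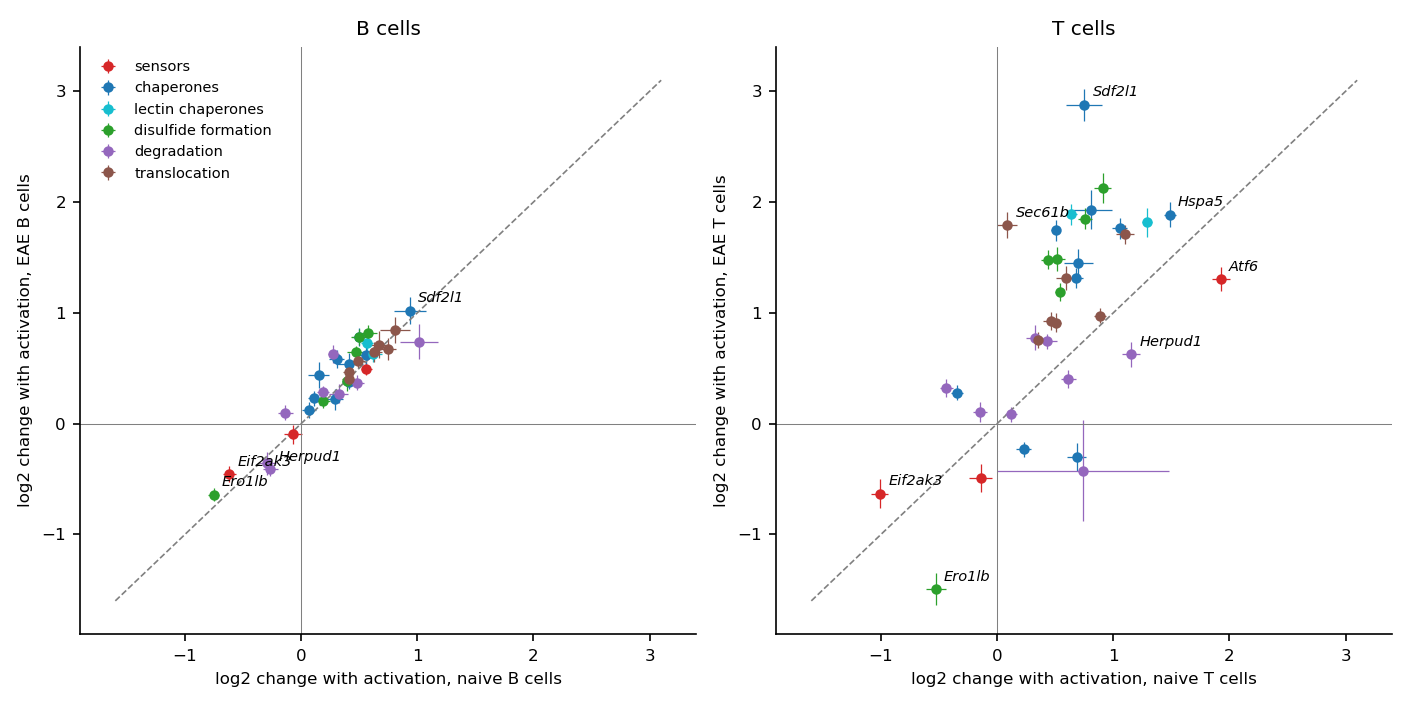
Log2 change with activation (CtrlIg beads over no stimulus) of the 36 genes in naive (horizontal axis) and EAE cells (vertical axis), for B cells at left and T cells at right; points are genes colored by role, bars are SE and the dashed line marks equal change. B cell points lie along the line, while in T cells most genes lie above it, with Sdf2l1 at 2.88 in EAE and 0.75 in naive cells and Atf6 below it at 1.31 and 1.93.

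Anti-Btla against CtrlIg beads called 0 of 36 members in naive T cells (0% of all genes tested) and 0 in EAE T cells (0.0687%) by edgeR, and 0 in each by DESeq2. At an unadjusted p under 0.05, edgeR had 4 members in naive T cells, all lower, and 0 in EAE T cells. Over all genes it had 1249 of 15137 in naive and 1356 of 14547 in EAE T cells. The members' medians were -0.01 and -0.05. Hspa5 stood at 320.3, 293.5 and 296.3 CPM with anti-Btla in naive T cells, overlapping CtrlIg, and at 592.6, 613.2 and 601.1 CPM in EAE T cells, below the 3 CtrlIg libraries. Eif2ak3 stood at 28.90, 31.52 and 32.07 CPM and at 20.26, 23.62 and 18.50 CPM, overlapping CtrlIg in both sets. With IFNb present, anti-Btla called 0 members in naive T cells (0.0132% of all genes tested) and 0 in EAE T cells (0%) by edgeR and 0 in each by DESeq2, with 0 and 6 at an unadjusted p under 0.05. Over all genes edgeR had 918 of 15137 and 1417 of 14547 under that unadjusted p.

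The difference of the anti-Btla change between B and T cells was tested as an interaction, also added after the other results were seen. In naive cells 22 of 36 members had a lower and 2 a higher change in B cells (9.61% and 7.24% of all genes tested), and in EAE cells 19 a lower and 2 a higher change (7.53% and 2.14%) by edgeR. The 2 higher were Eif2ak3 and Ero1lb in each. In EAE cells this count depended on the fit: it was 8 (2 higher and 6 lower) with library size as the only scaling, where the calls over all genes went from 353 higher and 1243 lower to 768 and 516, and 1 without the block. The difference of the activation change between B and T cells was planned. In naive cells 15 members had a lower and 4 a higher change in B cells (14.7% and 9.03% of all genes tested), and in EAE cells 23 a lower and 5 a higher change (19.7% and 18.2%), with medians of -0.15 and -0.69 against -0.04 and 0.05 over all genes.

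**Figure D4:**
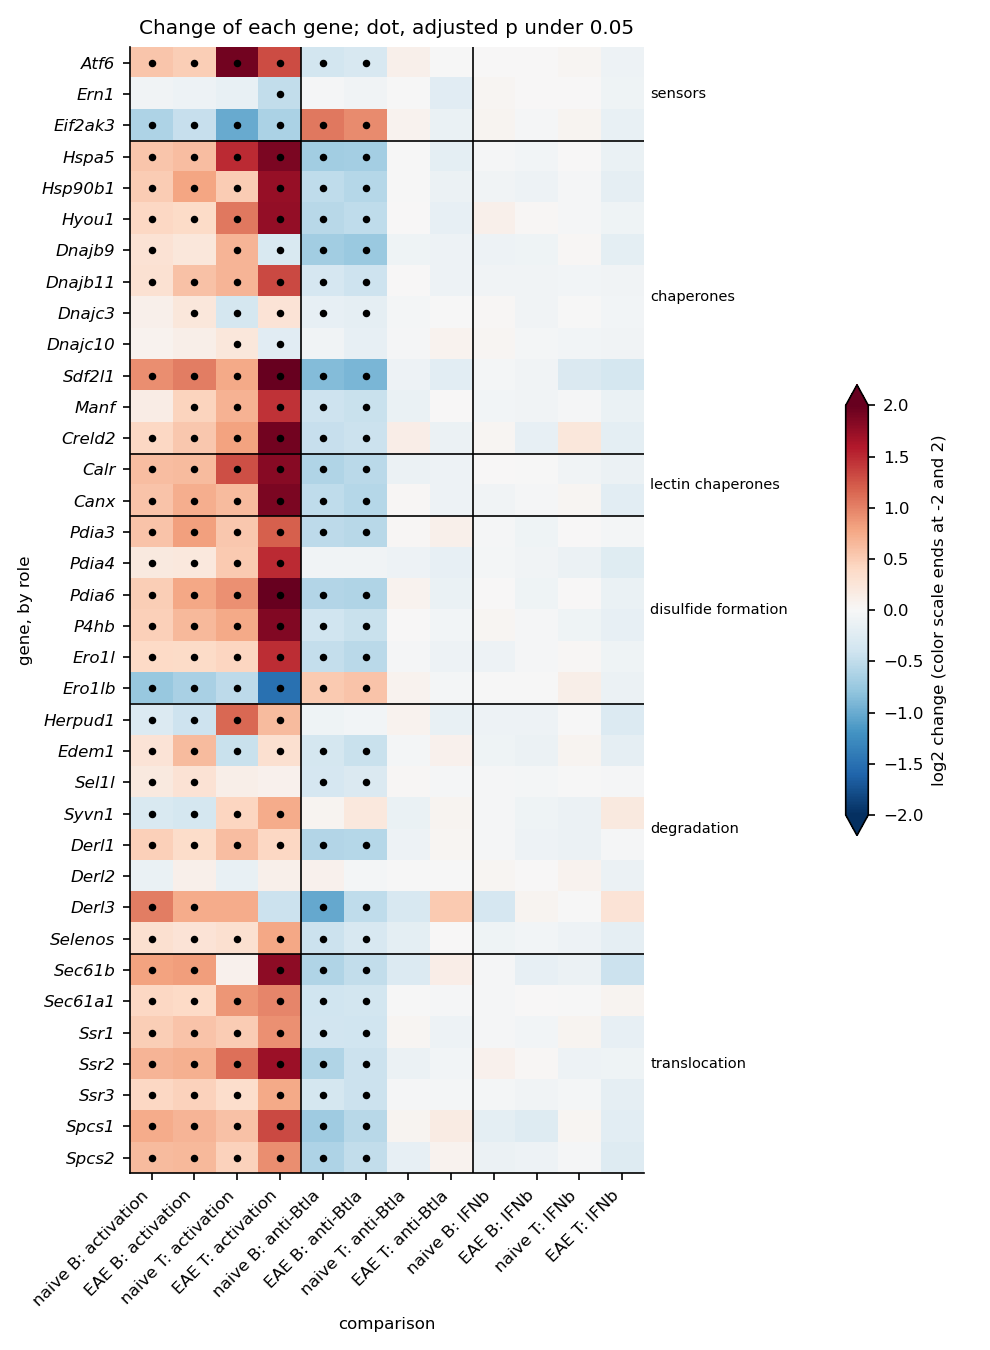
Log2 change of each of the 36 genes (rows, by role) in the activation, anti-Btla and IFNb comparisons of the 4 sets of cells (columns), with color from -2 (blue) to 2 (red) and a dot where edgeR's adjusted p was under 0.05. Most rows are red with activation in all 4 sets and blue with anti-Btla in both B cell sets, Eif2ak3 and Ero1lb are the reverse, and the T cell anti-Btla columns and all IFNb columns hold no dot.

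IFNb was added to CtrlIg beads in all 4 sets, and edgeR called 0 of 36 members in each (0.158% of all genes tested in EAE T cells and 0% in the other sets). At an unadjusted p under 0.05 there was 1 member in each B cell set, 0 in naive T cells and 9 in EAE T cells. Over all genes edgeR had 607 of 16618 in naive B and 400 of 16989 in EAE B cells. In naive and EAE T cells it had 926 of 15137 and 1355 of 14547. DESeq2 called 0 members in the B cell and naive T cell sets and 1 in EAE T cells, Sec61b, at -0.42 (adjusted p = 0.0485 by DESeq2). The summed level in EAE T cells was 6848, 7370 and 6602 CPM with IFNb, below the 3 libraries without it (0.874-fold). In the fit 33 of 36 changes were negative, with a median of -0.13 against 0.00 over all genes. These sums are scaled by library size, which as the only scaling moved the median of all genes by -0.07 on the log2 scale in this comparison. Hspa5 was 628.5, 647.7 and 557.1 CPM with IFNb (-0.14, adjusted p = 0.760 by edgeR).

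The last comparison asks whether unstimulated cells of immunized mice differ from those of naive mice. In B cells edgeR called 0 of 36 members (0.0492% of all genes tested), and 3 had an unadjusted p under 0.05, as did 1175 of the 16248 genes tested. DESeq2 called 2 members, Calr (0.45, adjusted p = 0.0384 by DESeq2 and 0.293 by edgeR) and Eif2ak3 (-0.39, adjusted p = 0.0351 by DESeq2 and 0.286 by edgeR). In T cells 10 of the 35 members tested were higher and 5 lower in EAE (18.6% and 17% of all genes tested) by edgeR, with a median of 0.24 against 0.00 over all genes. With library size as the only scaling 8 were higher and 6 lower, and the calls over all genes went from 2592 and 2371 to 2176 and 3016. Derl3 had too few reads to be tested there.

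Atf6 had the largest difference between the unstimulated T cells, at 23.63, 24.04 and 20.11 CPM in naive and 52.22, 73.02 and 54.51 CPM in EAE cells (1.49 ± 0.15, adjusted p = 0.000118 by edgeR). Hspa5 followed at 0.89 ± 0.16 (adjusted p = 0.00258 by edgeR), then Pdia3 at 0.77 ± 0.09 (adjusted p = 0.000294), Calr at 0.66 ± 0.17 (adjusted p = 0.0165) and Dnajb9 at 0.55 ± 0.09 (adjusted p = 0.00210). Sec61b was lower in EAE cells by 1.35 on the log2 scale (-1.35 ± 0.14, adjusted p = 0.000154 by edgeR), as were Eif2ak3 (-0.64 ± 0.11, adjusted p = 0.00210), Spcs1 (-0.55 ± 0.10, adjusted p = 0.00286), Derl2 and Edem1. The unstimulated EAE T cell libraries held 121 to 309 CPM of myeloid markers against 14.4 to 23.4 CPM in the naive ones, and 19.5 to 26.2 CPM of CD8 T cell markers against 926 to 1100 CPM. The part of these cells in the result was not tested. Leaving out a library moved the count of 15 between 9 and 16, and it was 9 without naive T unstimulated replicate 2.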

How the data were processed

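RNA-seq was analysed in 60 libraries of 20 groups, 3 each, grouped by the labels. Per the labels and the submitters' processing notes, total RNA was prepared with a column kit and quantified by Salmon on GRCm38 (version not given in the sources used here). The authors deposited Salmon expected counts and TPM per transcript in 67 files, where 7 T cell libraries had 2 runs, which were summed. Here the estimated counts were summed to GENCODE M21 genes and rounded. CPM is counts-per-million of the library total, and deposited TPM values were summed per gene and averaged.

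Genes passing filterByExpr (minimum count 10) were fitted with edgeR 4.0.16 (R 4.3.3), TMM scaling and glmQLFTest over the 15 libraries of a set, with replicate number as a block, since the study's linear models include the replicate. Unstimulated EAE and naive cells were compared in fits of 6 libraries without a block, and B and T cells or EAE and naive cells by interaction in fits of 30. SE is the log2 change over the square root of F. Alternatives were no block, DESeq2 1.42.0, RLE and library-size scaling, no filter and each library left out. Scripts were tested on simulated counts.

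The labels do not say whether libraries of a group came from separate animals, so p-values measure the spread between these libraries.

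The members, the list of 56 other pathway genes and the comparisons were chosen with earlier results of these data known. Genes were named by rule: in each comparison the called members, at most the 8 of largest change in each direction, Hspa5 and the 3 sensors always, and of the other genes Xbp1, Atf4, Ddit3 and up to 4 called genes of smallest p. Values in every library were to be given for Hspa5, Xbp1 and the 4 members of smallest p in B cell comparisons, and others were added. Of the members, 3 share exon bases with a gene on the same strand and 11 are overlapped on the opposite strand, where reads may be split. Promoters came from the RefSeq table of GRCm38.p6. 1 item among the cell type markers is not reported here.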

Additional observations from a re-analysis of the deposited data

Results flagged for a closer look

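Each result here is a difference of 2 changes between sets of cells, tested as an interaction by edgeR. For activation, B minus T, 9.03% of all genes tested were called higher and 14.7% lower in naive cells. In EAE cells these shares were 18.2% and 19.7%. For activation in naive cells, B minus T, 4 members were higher, namely Edem1 (0.67), Sec61b (0.67), Dnajc3 (0.41) and Eif2ak3 (0.34), and 15 lower, with the smallest p for Herpud1 (-1.47), Atf6 (-1.41), Hspa5 (-0.97) and Hyou1 (-0.69). In EAE cells 5 were higher, among them Derl3 (1.17), Ero1lb (0.85), Dnajb9 (0.52) and Dnajc10 (0.35), and 23 lower, with the smallest p for Sdf2l1 (-1.86), Hyou1 (-1.39), Pdia4 (-1.28) and P4hb (-1.21). Derl3 was barely present in EAE T cells, at 1.48 TPM at rest and 1.57 TPM with CtrlIg beads.

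For anti-Btla, B minus T, chosen after seeing the data, 2 members were higher in naive cells, Eif2ak3 (1.02) and Ero1lb (0.50), and 22 lower, with the smallest p for Spcs1 (-0.72), Hspa5 (-0.64), Pdia6 (-0.61) and Canx (-0.48). In EAE cells the same 2 genes were higher, Eif2ak3 (1.03) and Ero1lb (0.57), and 19 were lower, with the smallest p for Spcs1 (-0.76), Pdia3 (-0.70), Derl1 (-0.65) and Spcs2 (-0.61). Cell type and sequencing cannot be told apart in these differences. Of all genes tested, 7.24% were called higher and 9.61% lower in naive cells, and 2.14% and 7.53% in EAE cells.

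For activation in T cells, EAE minus naive, also chosen after seeing the data, 26 members were higher and 5 lower. Of all genes tested, 20.8% were called higher and 17% lower. Among the members that were higher, the smallest p were those of Sec61b (1.77), Canx (1.32), Hsp90b1 (1.31) and Ero1l (1.11). In naive T cells Sec61b stood at 113.8 TPM at rest and 114.0 TPM with CtrlIg beads. In EAE T cells it stood at 42.0 and 156.2 TPM, so its resting levels differed as well. The lower members included Dnajb9 (-0.91), Ero1lb (-0.89), Atf6 (-0.55) and Dnajc10 (-0.39).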

How the results depend on the processing

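Of 322 recomputed counts of members called, over 26 comparisons, 301 were within 1.5 times the reported count. Counts of 0 that stayed at 0 were scored as within it. Of 4316 recomputed single-gene values 0 reversed, 156 lost the call and 7 gained it, and 108 of the losses came with a library left out. A reversal was a change of sign in a gene called in the reported or the recomputed fit. Sign changes of genes called in neither fit were not scored. Without the replicate block, EAE B anti-Btla called 18 members (from 30) and EAE B anti-Btla with IFNb 18 (from 28). EAE B anti-Btla beads over rest called 2 (from 4). The calls over all genes fell in these EAE B comparisons too. The EAE difference of anti-Btla between B and T cells called 1 member without the block (from 21), and 28 single-gene calls were lost. Same-numbered libraries correlated above 0.1 in their deviations from group means in 19 and 27 of 30 pairs in naive and EAE B cells. The counts in naive and EAE T cells were 20 and 27 of 30. Median correlations of these pairs were 0.12 and 0.23 in B cells and 0.12 and 0.18 in T cells. Pairs of different numbers had medians of -0.06 and -0.15 in B cells and -0.05 and -0.10 in T cells. Same-numbered libraries thus deviated together to a degree, but the labels do not say what a number stands for. The EAE difference of anti-Btla between B and T cells fell to 11 members with RLE and 8 with library-size scaling, which moved the median of all genes by 0.08 and 0.16. With a library left out it ranged from 7, without EAE T CtrlIg replicate 1 or 2, to 19, and was 8 or 9 without EAE B CtrlIg replicate 1, EAE B anti-Btla replicate 2 or 3 or EAE T anti-Btla replicate 1 or 3. The unstimulated T comparison ranged from 9 (without naive T unstimulated replicate 2) to 16, and naive B anti-Btla beads over rest from 3 (without anti-Btla replicate 1 or 3 or unstimulated replicate 2 or 3) to 5. DESeq2 called 1 member for IFNb in EAE T cells and 2 in unstimulated B cells, where no filter gave 1, Calr (0.46, adjusted p = 0.0233). The cause of these shifts was not tested. T cell libraries were shallower than B cell libraries (medians of 13.2 and 33.0 M reads).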
